A study of Mus musculus with 27 samples.

Results

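The genes described here are 48 antiviral interferon-stimulated genes, picked by symbol from the 55483 genes of the deposited count table, with their reads in all 27 libraries. The set was named from gene function, but with earlier results of these data known, so counts of members that respond are not independent of the choice. It holds ISG15 and its ligating enzymes, sensors of foreign nucleic acid, oligoadenylate synthetases, Ifit proteins, restriction factors, the p200 family, ADP-ribosylating enzymes, ubiquitin ligases, nuclear factors and 7 others. All 48 symbols were found once each, and all 48 passed the filter on low counts in every comparison. Ifi205 passed it through the groups with LPS, where it was high, so its difference from DMSO was in part set by the filter.

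The cells were RAW264.7, a mouse macrophage line grown from a virus-induced tumour. They received DMSO (the solvent), LPS at 1 µg/ml, or LPS at 1 µg/ml with TM7nox at 10 µM, for 6 h in each case. The labels give DMSO in the LPS group as well, which is called LPS here. LPS is the lipopolysaccharide of bacterial outer membranes. TM7nox is one of the tanshinone mimics, small molecules made to interfere with the binding of HuR to RNA. Each treatment has 4 libraries of total RNA, 4 of the RNA pulled down by an antibody to HuR (RIP, ribonucleoprotein immunoprecipitation) and 1 of the RNA pulled down by control IgG, always replicate 3. There was no group with TM7nox alone, so the compound is seen here only on top of LPS. The labels do not say that replicates were separate cultures, so the p-values measure the spread between these libraries, which may be technical.

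Levels are given as CPM, counts scaled to the same library size (per M, mega, of reads) after scaling all 27 libraries by TMM, a method that sets the typical gene equal between libraries. Fold changes are on the log2 scale with their standard error (SE), and adjusted p-values are from edgeR's quasi-likelihood test with Benjamini-Hochberg adjustment over all genes tested. A gene is called at an adjusted p under 0.05. Replicate numbers were not part of these fits, except where a block is named. Values of replicates are listed in the order 1 to 4.

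Library totals ran from 2.73 M to 28.3 M counts in total RNA, 19.8 M to 41.4 M in RIP and 8.87 M to 24.5 M in IgG. The shallowest, DMSO replicate 1 of total RNA, also had the highest level of 40 of the 48 genes within its group, with a median of 152% of the mean of the other 3 libraries. RIP of DMSO replicate 1 was likewise highest for 40 genes (154%), whereas replicate 1 of LPS with TM7nox was lowest for 35 genes in total RNA (77.9%) and for 25 in RIP (77.7%). Mitochondrial genes took 12.1 to 22.4% of counts in total RNA, 0.559 to 1.86% in RIP and 5.31 to 6.13% in IgG, a difference in makeup that the ratio of RIP to RNA carries. All 10 macrophage markers examined were detected. With TM7nox 4 of them were lower than in LPS in total RNA (median -0.32, with 6.4% of all genes lower) and 5 in RIP (median -0.75, with 7.61%). None was called higher (7.37% and 8.64% of all genes), and the markers' part in the members' values was not tested. In RIP over RNA 10 of the 10 were lower in DMSO, 9 in LPS and 10 with TM7nox (medians -1.87, -1.32 and -1.63). Of all genes, 33.4%, 30.8% and 34.8% were lower in that order. B cell, T cell, epithelial and fibroblast markers did not pass 0.340 CPM in any total RNA library. Of 3 plasmacytoid dendritic cell markers, Siglech and Ly6d stayed under the same level, and Tcf4, which other cells also use, lay between 37.2 and 64.3 CPM. In bulk RNA, fewer responding cells and less RNA per cell cannot be told apart.

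Interferon-stimulated genes are switched on when type I interferon binds its receptor and the kinases Jak1 and Tyk2 activate transcription factors, among them Stat2. A complex of Stat2 and Irf9 binds the interferon-stimulated response element (ISRE) in promoters. In macrophages LPS reaches this pathway through Tlr4 and the adaptors Ticam2 and Ticam1, which lead to interferon beta, so a cell can respond to its own interferon. HuR, the product of Elavl1, binds RNA at stretches rich in U or in A and U, many of them in 3′UTRs, and is known for lengthening the life of the mRNAs it binds.

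Total RNA from LPS was compared with DMSO to measure the response of the antiviral genes. All 48 rose, with log2 fold changes between 1.07 (Adar) and 7.36 (Ifi205) and a median of 2.42, while the median of all genes was -0.04. Among the 12369 genes tested, 20.2% were called higher and 21.7% lower (13.2% and 34.4% when scaled by library totals). The 4 LPS libraries lay above the 4 DMSO libraries for each of the 48, as they did for 19.8% of all genes tested, with 18.9% the other way round. For 33 of them log2 was 2 or more, and for 14 it was 4 or more. The count was 48 without DMSO replicate 1, with a median of 2.59 (21% of all genes higher). Replicates 1 and 2 alone called 47 (median 2.25, with 8.41% of all genes higher) and replicates 3 and 4 alone called 48 (median 2.80, with 29.3% higher).

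**Figure D1:**
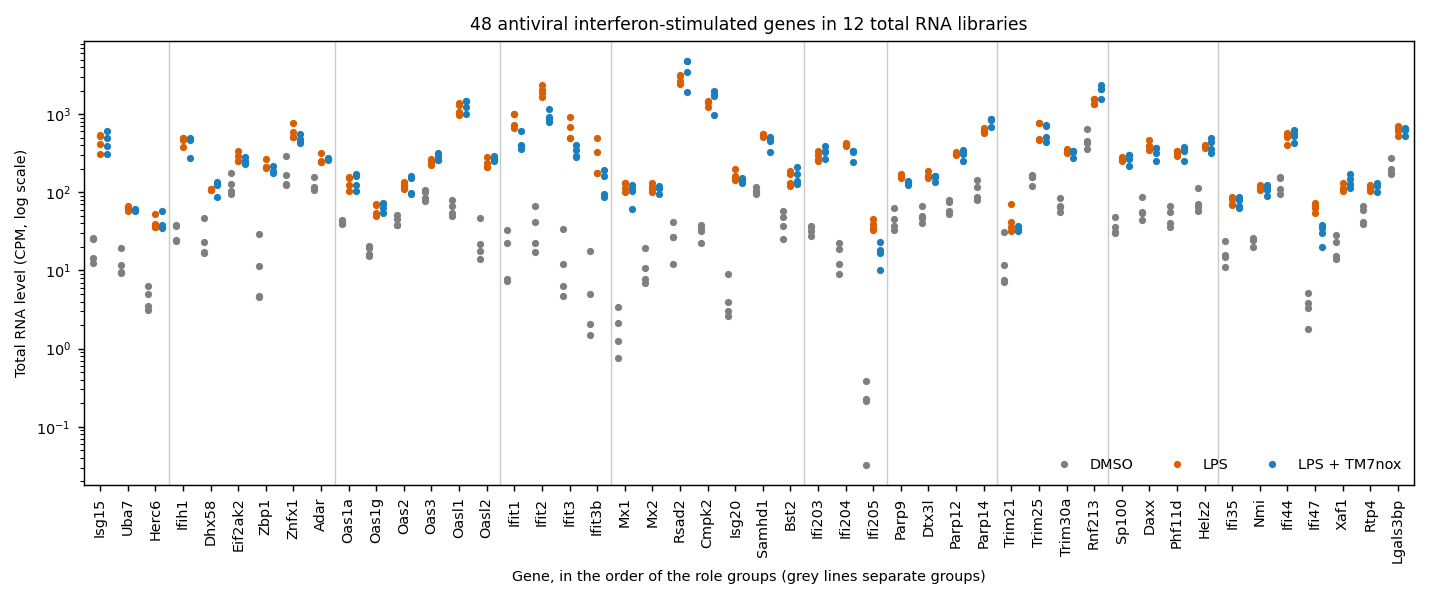
Level of each of the 48 genes in the 12 total RNA libraries, in CPM on a log scale, with 1 point per library and genes in the order of their groups. The LPS points lie above the DMSO points for all 48 genes, and the points for LPS with TM7nox mostly overlie those for LPS, with the Ifit genes, Ifi205 and Ifi47 lower.

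The ISG15 system had a median log2 fold change of 3.26 over its 3 genes. Isg15, the ubiquitin-like protein that is attached to viral and cellular proteins, was at 26.1, 25.1, 12.5 and 14.4 CPM in DMSO and at 305, 413, 529 and 539 CPM in LPS. The 2 groups were far apart, and within LPS replicates 3 and 4 were higher than 1 and 2. The change was 4.50 ± 0.31 (adjusted p = 7.31e-08), a fold of 22.6. Uba7, the enzyme that activates Isg15, rose by 2.32 ± 0.20, and Herc6, the ligase that attaches it in mice, by 3.26 ± 0.25.

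The 4 Ifit genes, whose products bind foreign RNA and hold back its translation, had the tightest set of changes, from 5.60 to 5.78. Ifit2 was at 66.3, 41.2, 22.6 and 17 CPM in DMSO and 2369, 2011, 1851 and 1642 CPM in LPS. The groups were far apart, and replicate 1 was the highest library in both. Ifit1 and Ifit3 rose by 5.61 ± 0.48 and 5.60 ± 0.56. Ifit3b, a near-identical copy of Ifit3, rose by 5.78 ± 0.72, and reads could have been assigned to either copy because the treatment of reads matching several places is not given in the sources used here.

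Restriction factors, which block single steps of viral growth, had a median of 5.32 over 7 genes and a wide range, from 1.82 to 6.70. Rsad2 (viperin), which makes a nucleotide that ends viral RNA chains, was at 41.8, 26.8, 26.9 and 12.1 CPM in DMSO and 2616, 2422, 3176 and 3064 CPM in LPS. The groups were far apart, and DMSO replicate 4 was the lowest of all. The log2 fold change was 6.70 ± 0.42 (adjusted p = 2.88e-08), a fold of 104. Its neighbour Cmpk2, a nucleotide kinase, rose by 5.43 ± 0.26, the influenza-blocking GTPase Mx1 by 6.21 ± 0.37 and the exonuclease Isg20 by 5.32 ± 0.31. Bst2 (tetherin), which holds budding virions at the cell surface, rose least in this group, by 1.82 ± 0.23, from the highest DMSO level per kilobase of the 7.

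The p200 proteins, which bind DNA, held the gene with the largest change. Ifi205 was nearly unread in DMSO, with 1, 15, 7 and 1 reads or 0.212, 0.386, 0.225 and 0.0329 CPM, and was at 32.6, 45.5, 34.8 and 39.5 CPM in LPS. Its log2 fold change of 7.36 ± 0.41 (adjusted p = 8.34e-09) therefore rests on few reads in the DMSO libraries. Ifi204 rose by 4.70 ± 0.26 and Ifi203 by 3.09 ± 0.16. The 3 belong to one cluster of similar genes, so reads could be shared among them.

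The sensing, synthetase, ADP-ribosylation and ubiquitin ligase genes changed less. Medians were 1.89 over 6 sensing genes, 1.70 over 6 synthetases, 2.02 over 4 ADP-ribosylation genes and 1.86 over 4 ubiquitin ligases. Oasl1, which holds back translation of the Irf7 mRNA, changed most among the synthetases, at 1062, 965, 1385 and 1311 CPM in LPS against 78.6, 67.1, 55.1 and 50.3 CPM in DMSO. Its change of 4.20 ± 0.21 (adjusted p = 3.78e-09) compared with 1.37 to 1.73 for Oas1a, Oas1g, Oas2 and Oas3, the enzymes that make the activator of RNase L. Oasl2 lay between, at 3.23 ± 0.32. Among sensors of foreign nucleic acid, Ifih1 (MDA5) rose by 3.87 ± 0.23 and Zbp1 by 4.26 ± 0.49, while the kinase Eif2ak2 (PKR) rose by 1.14 ± 0.19 and the RNA-editing enzyme Adar by 1.07 ± 0.15.

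Nuclear factors (Sp100, Daxx, Phf11d and Helz2) rose by 2.31 to 2.86. The 7 other genes had a median of 2.24 and ran from Rtp4 (1.11 ± 0.17), a membrane protein chaperone, to Ifi47 (4.27 ± 0.29), an immunity-related GTPase. Ifi35 and Nmi, whose proteins bind each other, rose by 2.24 ± 0.21 and 2.24 ± 0.13. In LPS with TM7nox all 48 were also higher than in DMSO (median 2.39, with 23.7% of all genes higher and 23.6% lower, or 15.1% and 36.9% by library totals), and this comparison shares its DMSO libraries with the one above. Without DMSO replicate 1 its count was 48 and its median 2.66 (24.4% of all genes higher). Without replicate 1 of LPS with TM7nox they were 48 and 2.55 (25.3%).

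Compared per kilobase of exon in total RNA, the order of the genes by level changed between treatments. In DMSO the highest levels were those of Lgals3bp (39.3 CPM per kb), a secreted glycoprotein, and Bst2 (34.4). In LPS Rsad2 led at 650.4 CPM per kb, from rank 28 in DMSO at 6.2. It was followed by Isg15 (571), Oasl1 (452), Ifit2 (333) and Cmpk2 (322), and Lgals3bp was at rank 9 (117). Exon length was the union of annotated exons, so a gene expressed from a short isoform is understated on this scale.

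Promoters were searched for the ISRE because it is the site through which interferon acts on these genes. RefSeq promoter windows (GRCm38.p6, 250 bases before to 50 after the start) were found for 39 of the 48 genes. The letters GAAANNGAAA, read on both strands, were present for 15 of the 39 (38.5%) and for 3.99% of 27025 genes with a window. An NF-kB motif was present for 7 (17.9%, against 9.55%). The letters TTCNNNGAA, also searched, were present for 8 (20.5%, against 9.55%). Below are the bases from 200 to 51 before the start for 4 of the genes described above, each on its gene's strand, with ISRE matches on either strand in capitals. They lie on GRCm39 at chr4:156285326-156285475 (minus strand) for Isg15, chr19:34618089-34618238 (plus) for Ifit1, chr19:34560729-34560878 (plus) for Ifit3 and chr12:26506502-26506651 (minus) for Rsad2.
Isg15: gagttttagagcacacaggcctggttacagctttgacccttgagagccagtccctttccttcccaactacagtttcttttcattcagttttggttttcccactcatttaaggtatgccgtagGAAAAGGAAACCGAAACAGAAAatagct
Ifit1: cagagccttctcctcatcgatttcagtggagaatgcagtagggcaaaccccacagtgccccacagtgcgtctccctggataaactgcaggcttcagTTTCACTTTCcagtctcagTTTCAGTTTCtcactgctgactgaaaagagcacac
Ifit3: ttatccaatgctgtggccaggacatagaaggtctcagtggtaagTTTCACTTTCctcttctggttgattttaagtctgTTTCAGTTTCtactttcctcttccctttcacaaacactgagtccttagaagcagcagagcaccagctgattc
Rsad2: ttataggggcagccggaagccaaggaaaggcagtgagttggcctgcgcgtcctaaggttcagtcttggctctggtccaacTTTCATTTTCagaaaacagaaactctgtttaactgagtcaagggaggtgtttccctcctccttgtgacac
Isg15 shows 3 overlapping matches in a row, Ifit1 and Ifit3 a spaced pair each, and Rsad2 a single match. The Ifit3 stretch occurs a second time in the genome, at chr19:34585125-34585274 before Ifit3b. The 15 genes with a match had log2 fold changes by LPS of 1.14 to 7.36 (median 3.09), and the 24 without one had 1.07 to 5.73 (median 2.33). These ranges overlap widely, and a match in these letters does not show that a factor was bound.

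LPS with TM7nox was compared with LPS to see what the compound did to this programme. In total RNA 3 of the 48 genes fell and none was called higher, where 6.4% of all genes tested were called lower and 7.37% higher. The 3 were Ifit2, Ifi47 and Ifi205, at 47.5%, 47.8% and 44.9% of their LPS means. For 42 of the 48 the log2 fold change lay within 0.5 of 0, and the median was -0.03. At an unadjusted p under 0.05 edgeR gave 4 lower and 2 higher (13.2% of all genes each way), and DESeq2 called 3 lower and 0 higher (9.43% and 9.06%). This comparison shares the LPS libraries with the response to LPS, so the genes' values are set side by side and not related to each other.

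Ifi47 (chr11:48967412-48987813, plus strand, GRCm39) was at 55.1, 73.4, 63.3 and 66.8 CPM in LPS and 19.7, 38.4, 35.3 and 30.1 CPM with TM7nox, against 5.09, 3.89, 3.31 and 1.78 CPM in DMSO. The highest library with the compound was below the lowest without it, and the lowest with it was still above every DMSO library. The change was -1.06 ± 0.24 (adjusted p = 0.00969). Ifi205 (chr1:173839549-173859456, minus strand) was at 10.2, 23.2, 16.6 and 18.5 CPM with the compound, against the 32.6 to 45.5 CPM in LPS given above. The groups did not overlap, replicate 1 was the lowest with the compound, and the change was -1.15 ± 0.26 (adjusted p = 0.0098). Both were called in each of the 8 fits that left out 1 library of these groups, with adjusted p-values of at most 0.0364. Without the lowest library, replicate 1 with the compound, they were at -0.90 and -0.97. Replicates 1 and 2 alone called none of the 48, with changes of -1.14 for Ifi47 and -1.22 for Ifi205. Replicates 3 and 4 alone gave -0.97 and -1.06, both called.

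Ifit2 (chr19:34527932-34554524, plus strand) was at 802, 1163, 865 and 913 CPM with TM7nox, where all 4 libraries were below the lowest LPS library. Its change of -1.07 ± 0.33 (adjusted p = 0.0461) lost its call in each of the 8 fits without 1 library (-1.20 to -0.96, adjusted p 0.0551 to 0.109), under scaling by library totals (-1.13, adjusted p = 0.0542) and in replicates 1 and 2 alone (-1.16, adjusted p = 0.133). In replicates 3 and 4 alone it was -0.95 (adjusted p = 0.000491). Ifit1 was at 990.4, 1013, 726 and 670.0 CPM in LPS and 353, 609, 399 and 386 CPM with the compound, and Ifit3 at 907, 682, 493 and 498 and 346, 404, 281 and 295 CPM. Neither pair of groups overlapped, yet neither gene passed the test, at -0.96 ± 0.39 (adjusted p = 0.134) and -0.96 ± 0.45 (adjusted p = 0.194). Ifit3b stood at -1.12 ± 0.57 (adjusted p = 0.235), and its groups overlapped. Taking the replicate numbers as a block called 6 genes lower, by adding Ifit1 (adjusted p = 0.0274), Ifit3 (0.0384) and Ifit3b (0.015). That fit called 12.7% of all genes lower and 12.3% higher, so the share of members called lower was near that of all genes.

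Groups did not overlap for 9 genes in all, 8 with the compound below and 1 with it above, where 10.4% and 11.3% of all genes tested did the same. Besides Ifi47, Ifi205, Ifit1, Ifit2 and Ifit3, the libraries with TM7nox were below those with LPS for Samhd1 (-0.29), Ifi204 (-0.37) and Parp9 (-0.28), and above them for Parp14 (0.41), and none of these 4 was called. Rsad2 was at 1921, 3466, 4798 and 4789 CPM with TM7nox. Its replicate 1 was under every LPS library, the other 3 were over every LPS library, and the test gave 0.41 ± 0.33 (adjusted p = 0.484). Rnf213, a very large ubiquitin ligase, gave 0.47 ± 0.19 (adjusted p = 0.137). In replicates 3 and 4 alone, 6 genes were called higher (Dhx58, Oasl2, Ifi203, Parp14, Rnf213 and Xaf1) and 6 lower, where 14.3% of all genes were called higher and 13.5% lower.

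In anti-HuR RIP the same comparison called 5 genes lower and none higher by edgeR, where 7.61% of all genes were called lower and 8.64% higher. DESeq2 called 7 lower and 1 higher (10.1% and 10.8% of all genes), and an unadjusted p under 0.05 was reached by 11 lower and 1 higher (15.8% and 15%). Ifit2 fell by 1.30 on the log2 scale, from 1088, 1122, 1511 and 1188 CPM in LPS to 391, 559, 627 and 483 CPM with TM7nox. Ifit3 changed by -1.28 ± 0.30 (adjusted p = 0.00879), Ifit3b by -1.54 ± 0.43 (adjusted p = 0.0213), Ifi205 by -1.27 ± 0.32 (adjusted p = 0.0131) and Ifi47 by -0.96 ± 0.19 (adjusted p = 0.00249). All 5 had libraries with the compound below every LPS library, as did Ifit1, Zbp1 and Znfx1, which were not called (-0.74 ± 0.31, -0.59 ± 0.43 and -0.51 ± 0.19). Of all genes tested, 8.29% lay below in this way. The replicate block called Ifit1 (adjusted p = 0.028) and Znfx1 (adjusted p = 0.0233) lower. Mx1, at 62.9% of its LPS mean in RIP, was not called in the main fit but was called lower in 5 of the alternative fits. Of the 5 genes called, Ifit3b was called in 5 of the 8 fits without 1 library, and the other 4 in all 8. Replicates 1 and 2 alone lost the calls of Ifit3 (adjusted p = 0.0675) and Ifi47 (0.0518), and replicates 3 and 4 alone that of Ifi205 (-1.16, adjusted p = 0.074).

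In total RNA, from separate libraries, these 5 genes stood between -0.96 and -1.15, and the difference between RIP and RNA is tested further on. Rsad2 was at 4880.4, 4870.1, 7750.2 and 5438 CPM in RIP of LPS and 3972, 8701, 13424 and 11758 CPM with TM7nox. The groups overlapped through replicate 1 with the compound, and the gene was not called, at 0.68 ± 0.33 (adjusted p = 0.18). Without RIP replicate 1 of LPS with TM7nox it was called higher, at 0.94 (adjusted p = 0.0325). With the replicate numbers as a block, 12 genes were called lower and 1 (Ifi44, 0.44) higher, where 17% of all genes were called lower and 16.6% higher.

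**Figure D2:**
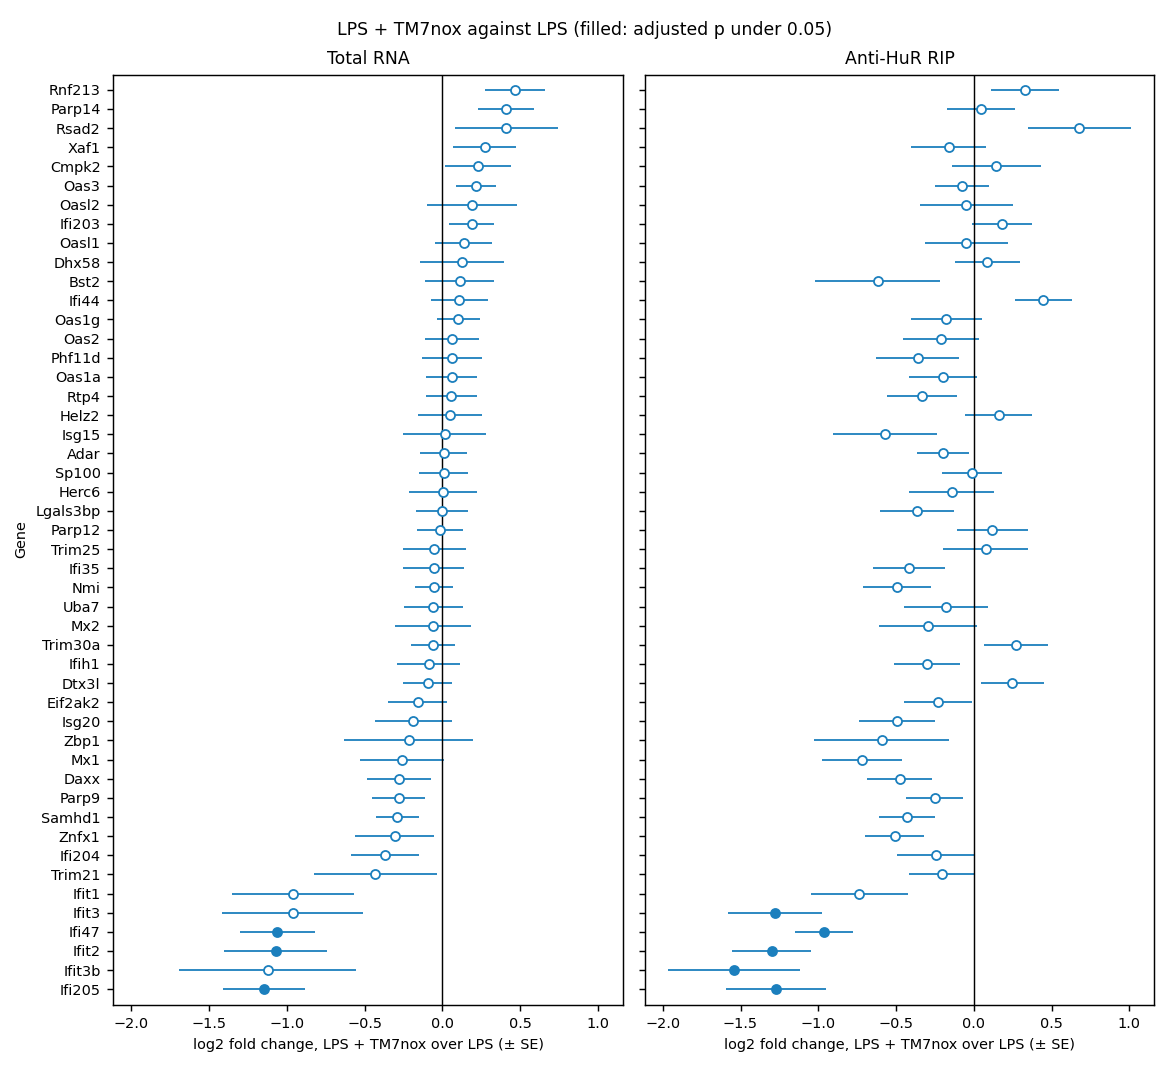
Log2 fold change of LPS with TM7nox over LPS for the 48 genes in total RNA (left) and anti-HuR RIP (right), with bars of 1 SE and filled points for genes called. Most genes sit near 0, and the Ifit genes, Ifi47 and Ifi205 lie at the low end of both panels.

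Upstream genes of the pathway moved in part. Of 24 genes chosen as its inducers, signalling parts and feedback inhibitors, 16 rose and 2 fell with LPS in total RNA (20.2% and 21.7% of all genes). Ifnb1, interferon beta, went from at most 0.0772 CPM to 3.29, 7.77, 11.3 and 10.6 CPM. It passed the filter on low counts through the groups with LPS, so its rise was in part set by the filter. Stat2 rose by 2.84 ± 0.15, Irf7 by 2.79 ± 0.27 and the ISG15-removing inhibitor Usp18 by 3.18 ± 0.21, while the receptor Tlr4 changed by -1.12 ± 0.17 and its adaptor Ticam2 by -1.63 ± 0.31. With TM7nox 4 of the 24 were lower than in LPS (6.4% of all genes), namely Socs1 (-1.28), Ikbke (-1.01), Irf1 (-0.77) and Cgas (-0.69). The 3 called higher (7.37%) were Ticam2 (1.22), Tlr4 (0.57) and Ticam1 (0.51). Ifnb1 was at 0.146, 1.87, 6.84 and 6.46 CPM with the compound, lowest in replicate 1, and was not called, at -1.09 ± 0.66 (adjusted p = 0.332). The part of Ifnb1 in the lower levels of members in that replicate was not tested.

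Recovery with anti-HuR was measured as RIP over total RNA within each treatment, a ratio relative to the typical gene. Most antiviral mRNAs were recovered less than the typical gene. In LPS 32 of the 48 were lower and 3 higher (30.8% and 32.9% of all genes), in DMSO 34 and 4 (33.4% and 37%), and in LPS with TM7nox 35 and 4 (34.8% and 35.2%). Medians were -0.90, -0.88 and -1.07 in that order, against -0.06, 0.04 and -0.09 for all genes. In all 3 treatments 28 genes were lower and 3 higher, namely Dtx3l, Trim30a and Rsad2, and 4 were called in none (Trim25, Oasl2, Ifi204 and Ifi44). Of all genes, 27% were lower and 30.1% higher in all 3. With the replicate numbers as a block within each treatment, 36 members were lower and 4 higher in all 3 (28.9% and 31.3% of all genes), and each of the 48 was called in at least 1 treatment. Without total RNA of DMSO replicate 1 the DMSO counts were 31 lower and 5 higher (median -0.74, with 34.2% and 36.5% of all genes). Without RIP of DMSO replicate 1 they were 36 and 2 (median -1.02, with 31.8% and 36%). In LPS with TM7nox, leaving out total RNA of its replicate 1 gave 36 lower and 3 higher (median -1.15, with 33.8% and 33.7% of all genes). Leaving out RIP of that replicate gave 31 and 5 (median -0.97, with 31.4% and 34.4%). For comparison, the mRNA of HuR itself, Elavl1, gave 5.00, 5.07 and 5.38 in DMSO, LPS and LPS with TM7nox.

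This scale sets the median of all genes near 0. Scaling by library totals instead moved that median to -0.72 in DMSO, -1.06 in LPS and -1.07 with TM7nox, and 2 members were then higher and 43, 45 and 45 lower. Of all genes, 49.7%, 56.8% and 55.2% were then lower and 26.4%, 19.8% and 23.2% higher. Dtx3l and Trim30a were still called higher in each treatment, at 2.67 to 3.23, and Rsad2 was at 0.24, 0.01 and 0.31 and not called.

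Dtx3l (ENSMUSG00000049502), a ubiquitin ligase that works in a complex with Parp9 on damaged DNA and in interferon signalling, was the most recovered of the 48. Total RNA held 66.8, 49.98, 47.2 and 40.1 CPM in DMSO, 189, 162, 160.4 and 151 CPM in LPS and 135, 164, 164 and 158 CPM with TM7nox. RIP held 737, 512, 562 and 455 CPM in DMSO, 2667, 2673, 2498 and 1889.7 CPM in LPS and 2469, 3564, 2823 and 3065 CPM with TM7nox. IgG held 50.3, 190.3 and 189 CPM in the same order. Each RIP library was more than 10 times its same-numbered total RNA library, with DMSO ratios of 10.2 to 11.9, LPS ratios of 12.5 to 16.5 and TM7nox ratios of 17.3 to 21.8. IgG over total RNA was 1.07 to 1.19. The log2 values were 3.61 ± 0.19, 3.89 ± 0.19 and 4.23 ± 0.20, the last with an adjusted p of 1.30e-15.

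Trim30a (ENSMUSG00000030921, chr7:104058232-104114407, minus strand), a ligase known for limiting NF-kB signalling after Toll-like receptors, followed closely. It was at 331, 362, 316 and 329 CPM in total RNA of LPS and 3879, 4746, 4825 and 3717 CPM in RIP, against 555 CPM in IgG. No RIP library of LPS overlapped those of total RNA or the IgG library. DMSO ratios were 10.4 to 11.04, LPS ratios 11.3 to 15.3 and TM7nox ratios 14.7 to 18.7, for log2 values of 3.56 ± 0.19, 3.68 ± 0.19 and 4.03 ± 0.20. Trim30 has several similar copies on the same chromosome, so reads could be shared among them. Rsad2 had ratios of 1.44 to 2.998, 1.77 to 2.44 and 2.07 to 2.80, and log2 values of 1.09 ± 0.35 (adjusted p = 0.00823), 1.02 ± 0.35 (adjusted p = 0.0128) and 1.28 ± 0.35 (adjusted p = 0.00215). Its call was lost in DMSO without RIP replicate 1 (0.78, adjusted p = 0.0568) and in replicates 1 and 2 alone (1.06 in DMSO, adjusted p = 0.0512, and 0.95 in LPS, adjusted p = 0.0765).

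Parp9 lies head to head with Dtx3l on the other strand (Dtx3l chr16:35746881-35759521, Parp9 chr16:35758840-35792980, GRCm39) and the annotated genes overlap at their starts. The kit keeps strand, but the strand setting of the counting is not given in the sources used here, so reads in the overlap may count for either gene. Parp9 was recovered less than the typical gene, at -0.66 ± 0.17, -0.88 ± 0.16 and -0.84 ± 0.16, with ratios of 0.453 to 0.648 over the 3 treatments. The proteins of the 2 genes act as partners, but their mRNAs lay on opposite sides of the typical gene. Helz2, a nuclear helicase, was called higher in DMSO and with TM7nox (0.50 ± 0.21 and 0.50 ± 0.21) but not in LPS (0.39 ± 0.21). Its sign turned under scaling by library totals (-0.34 in DMSO, -0.62 in LPS and -0.50 with TM7nox), where it was called lower in LPS and with TM7nox. Both calls were lost with no filter (0.25 and 0.34), in replicates 1 and 2 alone (0.32 and 0.37) and without any of several single libraries, among them RIP of DMSO replicate 1 (0.42, adjusted p = 0.0991) and total RNA of LPS with TM7nox replicate 1 (0.36, adjusted p = 0.134). A replicate block by treatment called it higher in LPS (0.38, adjusted p = 0.00979).

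**Figure D3:**
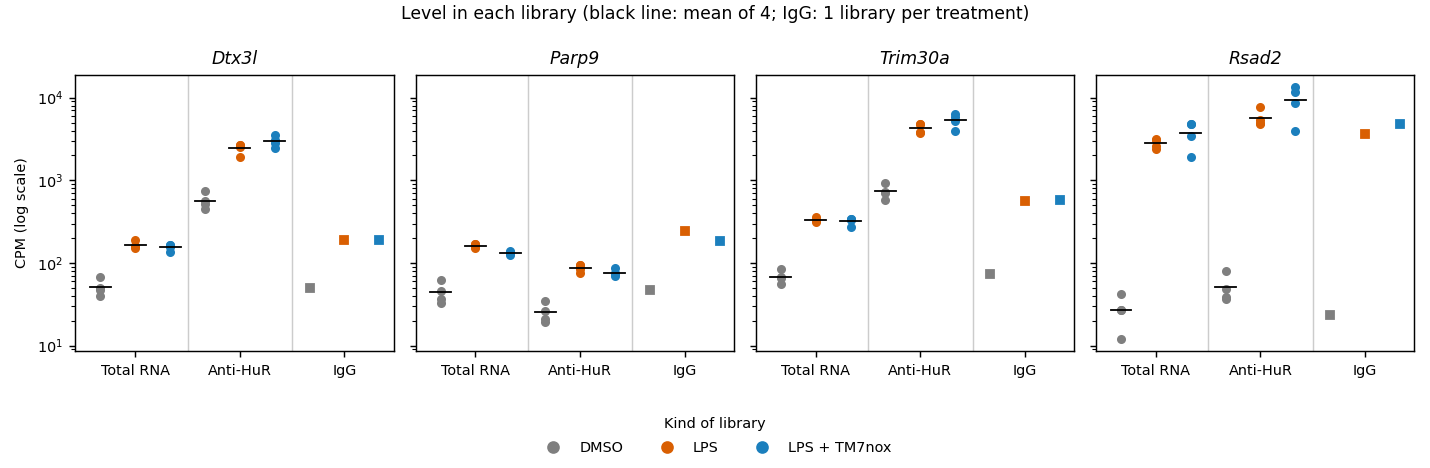
Levels of Dtx3l, Parp9, Trim30a and Rsad2 in total RNA, anti-HuR RIP and IgG, in CPM on a log scale, with 1 point per library and black lines for means of 4. RIP points of Dtx3l and Trim30a lie more than 10 times above the same-numbered points of total RNA in each treatment, while those of Parp9 lie below.

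Among the lowest were Lgals3bp, the interferon-induced partners Nmi and Ifi35, Isg15 and the nuclear protein Phf11d. Lgals3bp was at 698, 531, 639 and 599.9 CPM in total RNA of LPS and 137, 113, 173 and 201 CPM in RIP, with 863 CPM in IgG. Within each treatment every RIP library was below every total RNA library, with ratios of 0.142 to 0.336 over the 3 treatments, and the log2 values were -2.53 ± 0.21, -1.98 ± 0.21 and -2.33 ± 0.21. Nmi gave -1.85, -1.68 and -2.11, Isg15 -1.73, -1.66 and -2.24, Ifi35 -1.94, -1.45 and -1.80, and Phf11d -1.74, -1.53 and -1.94. Bst2 was at -1.68, -1.34 and -2.06. Ifi205 was at -1.57 in LPS and -1.69 with TM7nox, and had 0 to 4 reads per RIP library in DMSO. Of the 12 genes of sensing and the synthetases, 10 were lower in LPS and none higher (30.8% and 32.9% of all genes).

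**Figure D4:**
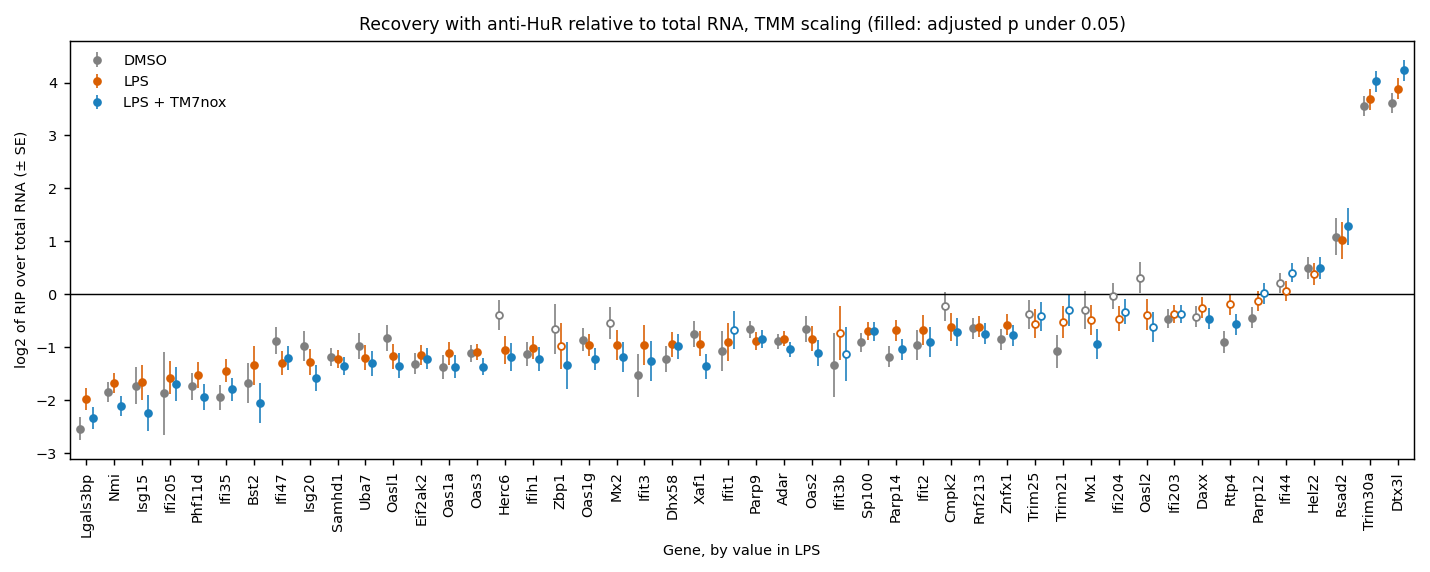
Log2 of RIP over total RNA for the 48 genes in each treatment, with bars of 1 SE, filled points for genes called and genes ordered by their value in LPS. Dtx3l and Trim30a stand near 4, Rsad2 near 1, and most other genes lie between -2 and 0.

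IgG libraries gave a second reference, with treatment as a term in the fit since each treatment has 1. Here 3 of the 48 were higher in anti-HuR and 35 lower (33.8% and 34.2% of all genes), and 2 and 45 when scaled by library totals (19.4% and 55.8%). The 3 were again Dtx3l at 3.69 ± 0.24 (adjusted p = 1.20e-10), Trim30a at 3.13 ± 0.23 (adjusted p = 6.80e-10) and Rsad2 at 0.88 ± 0.30 (adjusted p = 0.015). Rsad2 was not called without the DMSO IgG library (adjusted p = 0.0757) or without that of LPS with TM7nox (adjusted p = 0.0678), and its sign turned under scaling by library totals (-0.16). This comparison shares the RIP libraries with RIP over RNA. Lgals3bp (-2.60 ± 0.18), Nmi (-2.01 ± 0.17) and Phf11d (-1.81 ± 0.21) were lowest.

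In RIP itself all 48 genes were higher in LPS than in DMSO (median 2.67, with 23.5% of all genes higher and 21.2% lower, or 9.54% and 47.2% by library totals). Without RIP of DMSO replicate 1 the count was 48 and the median 2.85 (20.4% of all genes higher). A change of recovery by LPS or by the compound was tested as the difference of RIP over RNA between treatments. None of the 48 was called for either, by edgeR or by DESeq2. In the whole table edgeR called 0.014% of genes higher and 0.028% lower by LPS, and 0.00699% higher and 0% lower by TM7nox. DESeq2 called 0.238% higher and 0.224% lower by LPS, and the replicate block 0.119% and 0.231%. The smallest adjusted p was 0.614 by LPS (Rtp4, 0.71) and 0.871 by TM7nox, and at an unadjusted p under 0.05 there were 1 and 0 genes. For Dtx3l the 95% interval of the difference by TM7nox ran from -0.15 to 0.85 around 0.35, and for Ifit2 from -1.04 to 0.60 around -0.22. Wider intervals occurred, such as -0.995 to 2.21 for Ifit3b by LPS, so a missing call does not show that recovery was the same.

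Annotated 3′UTRs were examined because HuR binds U-rich RNA. The window of 30 bases richest in T (U in the RNA) was taken from the 3′UTR of each gene's main transcript in GENCODE M39 on GRCm39. It is printed for the 3 genes recovered in every treatment and for Lgals3bp and Isg15 from the low end, with runs of at least 3 T in capitals. These lie at chr16:35747325-35747354 (minus strand, exon 5) for Dtx3l, chr7:104058953-104058982 (minus) for Trim30a, chr12:26494112-26494141 (minus) for Rsad2, chr11:118283757-118283786 (minus) for Lgals3bp and chr4:156283966-156283995 (minus) for Isg15.
Dtx3l: TTTgTTTagaTTTTTTTTTTTTTTTTTTTT
Trim30a: TTTTcTTTgTTTgTTTcaTTTTTcTTTTTT
Rsad2: TTTTaTTTgcTTTTgTTTggggTTTTTTTT
Lgals3bp: gctgcTTTgtaagcataaactgattgtatt
Isg15: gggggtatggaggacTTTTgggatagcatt
The windows of Dtx3l, Trim30a and Rsad2 hold 21 T or more, against 12 for Lgals3bp and 9 for Isg15, which are the poorest in T of the weakly recovered genes named above. The best windows of the others held 15 T for Ifi35, 16 T for Nmi, Phf11d and Bst2 and 18 T for Ifi205. Ifit1 and Ifih1 also reach 21 T or more in 30 bases, and both were recovered less than the typical gene in LPS, at -0.91 ± 0.36 and -1.01 ± 0.22, so such a stretch was not particular to the recovered genes.

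The antiviral genes had shorter 3′UTRs than all coding genes tested, the members included (median 893.5 bases against 1354 over 10996 genes). They also had fewer ATTTA words (1 against 2) and a less T-rich best window (17 T against 19). Across the 48 genes, T in the best window and log2 RIP over RNA in LPS had Pearson's r of 0.60 and Spearman's rho of 0.49. Over all 10996 coding genes these were 0.55 and 0.54. The other features examined gave the 48 genes an r of 0.70 (rho 0.52) for runs of at least 5 T, 0.33 (rho 0.51) for 3′UTR length, 0.23 (rho 0.21) for the share of T and -0.155 (rho -0.006) for ATTTA per kilobase. Genes are not independent replicates, longer 3′UTRs offer more windows, and Dtx3l and Trim30a lie far above the other members. Among genes with 21 T or more, the median log2 value was 1.17 over 3509 coding genes and -0.13 over the 7 antiviral genes there (Dtx3l, Ifi203, Ifih1, Ifit1, Parp12, Rsad2 and Trim30a). With fewer than 15 T the medians were -0.85 over 1601 coding genes and -1.15 over 8 members. No test was made between these medians.

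**Figure D5:**
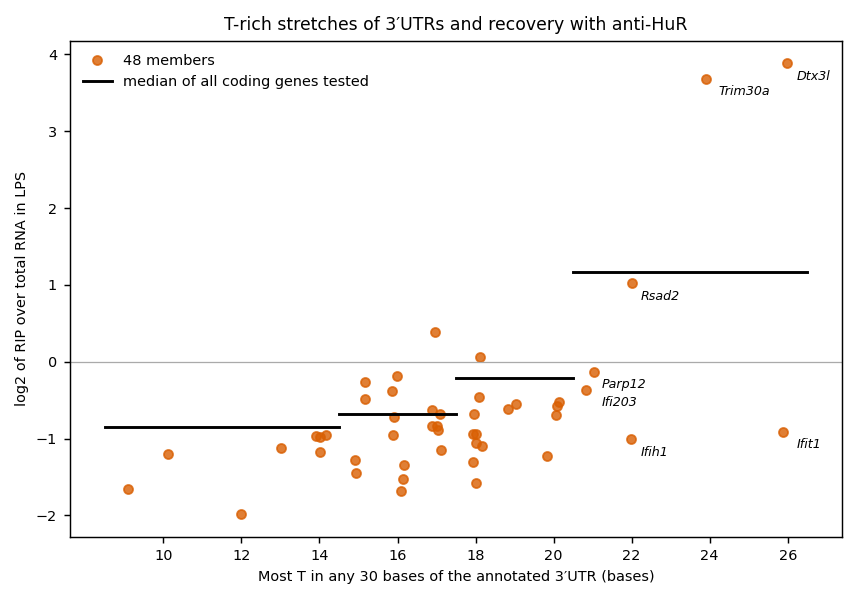
Log2 of RIP over total RNA in LPS against the most T in any 30 bases of the annotated 3′UTR for the 48 genes, with points shifted slightly sideways to show ties and black lines for the medians of all coding genes in 4 ranges. Dtx3l, Trim30a and Rsad2 are high at 21 T or more, and Ifit1 and Ifih1 lie below 0 in the same range.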

How the data were processed

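Reads were counted per gene by the authors, and the deposited values are raw counts for 55483 genes in 27 libraries made with a stranded SMART-Seq kit from 7 ng of RNA. The submitters' processing notes name FastQC 0.11.9, STAR, HTSeq, DESeq2 and GRCm39. Sources used here do not give the strand setting or the treatment of reads matching several places, and no molecular identifiers are described, so copies made in PCR count as reads. From these counts, edgeR 4.0.16 in R 4.3.3 gave TMM scaling, a filter on low counts (filterByExpr, minimum count 10) and quasi-likelihood tests with Benjamini-Hochberg adjustment at 0.05, in 11 comparisons over total RNA, RIP, both together, or RIP with IgG. The code was tested on simulated data.

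Alternatives were DESeq2 1.42.0, other scalings, no filter, replicates 1 and 2 or 3 and 4 only, the replicate number as a block and leaving out each library. The labels number replicates 1 to 4 in each group. Same-numbered libraries deviated together, with correlations of 0.116 to 0.392 for every pair. Any pairing was thus read from the data and not the design. The main fits left the replicate numbers out, and the fits with a block are alternatives. Members, gene lists and tests were chosen with earlier results of these data known. Genes named with values are the 3 largest called per direction in each comparison and the gene of highest level in each group, 20 in all, with others that were chosen after their values were seen.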

Additional observations from a re-analysis of the deposited data

Results flagged for a closer look

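For the 20 genes named by rule, 120 sets of 4 libraries were examined for a library far from the other 3 by Dixon's test at 95%, which chance gives in about 1 of 20 sets. There were 5 such sets, all with replicate 1 as the outlying library. Ifi204 was at 244 CPM in total RNA of LPS with TM7nox replicate 1, where the others lay between 331 and 342 CPM. Parp14 was at 678 CPM in the same library, against 846 to 869 CPM. In RIP of DMSO replicate 1, Ifit3 was at 8.03 CPM (others 2.31 to 3.14 CPM), Nmi at 8.26 CPM (5.33 to 5.38 CPM) and Oasl1 at 44.2 CPM (27.3 to 29.9 CPM).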

How the results depend on the processing

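The response of the 48 genes to LPS kept its direction and its count under the alternatives run, at 47 to 48 in total RNA and 48 in RIP. The counts with TM7nox moved. In total RNA, where 3 were lower and 0 higher, 6 were lower with no filter on low counts (2.91% of all genes), 6 with the replicate block (12.7%), 0 in replicates 1 and 2 only (0.561%), and 6 lower with 6 higher in replicates 3 and 4 only (13.5% and 14.3%). Leaving out 1 library gave 2 lower (3.95 to 6.17% of all genes). In RIP, where 5 were lower and 0 higher, 8 were lower with no filter (3.18%) and 3 in replicates 1 and 2 only (2.29%). DESeq2 gave 1 higher (10.8%), and the replicate block gave 12 lower and 1 higher (17% and 16.6%). Leaving out 1 library gave 4 to 6 lower (4.7 to 7.23% of all genes) and 0 to 1 higher (5.96 to 8.67%). RIP over RNA in DMSO, with 4 higher, gave 2 under scaling by library totals (26.4% of all genes) and 2 in replicates 1 and 2 only (27.2%). Without 1 library it gave 2 to 5 (34.8 to 36.5%). With TM7nox, also 4 higher, library totals gave 2 (23.2%). Library totals also turned the sign of Helz2 (-0.34 in DMSO, -0.62 in LPS, -0.50 with TM7nox, -0.99 against IgG), Ifi44 (-0.61, -0.94 and -0.58 in the 3 treatments), Parp12 with TM7nox (-0.97) and Rsad2 against IgG (-0.16). No filter and the block change the genes or terms fitted, pairs of replicates use fewer libraries, and the cause of the other changes was not tested. The block changed no other count of members called beyond 1.5 times. All 3 IgG libraries are replicate 3 and 1 per treatment, so IgG has no replicate within a treatment. Counts of 0 to 15 reads limit Ifi205 in DMSO.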
